A study of Mus musculus with 6 samples.

Results

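The smooth muscle contractile genes described here were Acta2, Actg2, Tagln, Cnn1, Tpm1, Tpm2, Myl9, Myh11, Des and Lmod1. They were taken by name: every non-control probe that the array's own annotation assigned to one of these 10 genes was kept, which gave 16 of the 55681 probes, and 10 of the 34797 genes. RNA of immortalized murine embryonic fibroblasts (MEF), cells grown from mouse embryos, was hybridized to 6 one-colour Agilent mouse arrays, 2 per group. The WT cells were of the strain labelled W4, the cells without TIA1 (TIA1 KO) were BALB/c and the cells without TIAR (TIAR KO, gene Tial1) were C57BL/6, so the effects of genotype, strain and line of cells cannot be told apart. The labels give no treatment and no age. On the slide, both TIA1 KO arrays occupied a row of their own, so row and TIA1 KO cannot be told apart either, and the same 2 WT arrays served in the comparison with each knockout.

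Smooth muscle cells contract when myosin II, switched on by phosphorylation of its regulatory light chain, pulls on filaments of smooth muscle actin that are lined with tropomyosin and calponin family proteins. Fibroblasts that take up part of this machinery, with alpha smooth muscle actin in stress fibres, are called myofibroblasts, and they also lay down collagen-rich matrix. Many genes of this programme are switched on by serum response factor, which binds a short sequence called the CArG box, together with myocardin family co-activators, and transforming growth factor beta is the best known signal that induces them.

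Values are log2 intensities after background correction and normalization across the 6 arrays. A probe was called changed when its Benjamini-Hochberg adjusted p, over all 55681 probes, was under 0.05 and its fold change was above 2. The depth of the arrays differed. The median spot gave 152 and 140 intensity units (WT), 458 and 218 (TIA1 KO), then 136 and 119 (TIAR KO), and 16000 probes on TIA1 KO replicate 1 to 26254 probes on WT replicate 2 were well above background. Of the 16 contractile gene probes, 11 were well above background on all 6 arrays, and the probes of Myh11 and Lmod1 were so on none. No spot of any of them was saturated. In bulk RNA, fewer cells of a type and less RNA per cell cannot be told apart.

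The deleted genes were read first. Tia1, the gene deleted in TIA1 KO MEF, had 3 probes, and its brightest measured 10.72 and 8.54 (WT), 7.87 and 8.44 (TIA1 KO), then 9.56 and 9.58 (TIAR KO). It was not called in either knockout, with a log2 fold change of -1.47 ± 0.79 (SE) and an adjusted p of 0.288 in TIA1 KO MEF. The probe A_55_P2052370 measured 9.56 and 9.90 (WT) and 7.57 and 8.65 (TIA1 KO), a log2 fold change of -1.62 ± 0.42 that was not called (adjusted p = 0.116). The third, A_55_P2052377, was not well above background on either WT array and had 0.87 ± 0.28 (adjusted p = 0.149). Tial1 had 2 probes. The brighter one, whose spot on WT replicate 1 was dropped as an outlier, measured 13.22 on WT replicate 2, 14.07 and 13.69 (TIA1 KO), then 9.57 and 11.60 (TIAR KO), and was not called in TIAR KO MEF (log2 -2.63 ± 0.87, adjusted p = 0.2). The other measured 11.71 and 11.09 (WT), 11.85 and 11.49 (TIA1 KO), then 10.00 and 9.65 (TIAR KO). This second probe fell by 1.58 ± 0.26 on the log2 scale in TIAR KO MEF (adjusted p = 0.0254). Where these probes lie relative to the deleted parts is not given in the sources used here. Gapdh changed by less than its standard error, by -0.04 ± 0.16 on the log2 scale without TIA1 and by 0.09 ± 0.14 without TIAR.

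Acta2, Tagln, Myl9 and Tpm1 rose in TIA1 KO MEF, and Acta2, Actg2, Tagln, Cnn1, Myl9 and Des rose in TIAR KO MEF, each read from the brightest probe of the gene. In TIA1 KO MEF 8 of the 16 probes were called, all higher than in WT MEF, where 3.54% of all probes were called and 2.18% were called higher. In TIAR KO MEF 9 of the 16 probes were called, again all higher, where 5.76% of all probes were called and 3.39% were called higher. The median log2 fold change of the 16 probes was 1.14 without TIA1 and 1.31 without TIAR, beside -0.09 and -0.02 over all probes. The arrays of the groups did not overlap for 13 of the 16 probes in each comparison with WT MEF, as for 65.2% of all probes without TIA1 and 49% without TIAR. In TIAR KO MEF the Tpm1 probe A_55_P2032192 had no value on replicate 1 and could not be read for overlap. Probes that lacked a value were left out of the shares of all probes. The calls in TIA1 KO MEF were lost without WT replicate 1 or without WT replicate 2. Every call of the whole array was lost with them, so the loss says nothing particular to these 16 probes. The median log2 fold change of the 16 probes was then 1.09 and 1.13. The calls in TIA1 KO MEF also fell to 0 with the scanner software's processed signals and to 3 in the log2 table that was deposited with the arrays, where 0 and 2.32% of all probes were called. Under scaling to a common median the calls in TIA1 KO MEF numbered 4, those of Acta2 and Tagln higher and both Tpm2 probes lower, while 8 were called in TIAR KO MEF, all higher. In that setting 28.8% of all probes were called without TIA1 and 7.51% without TIAR, and the whole array had a median of -0.68 and -0.03 on the log2 scale, so the 4 calls are no larger a share than that of the whole array. Leaving out any 1 of the 4 arrays left 7 to 9 calls in TIAR KO MEF.

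**Figure D1:**
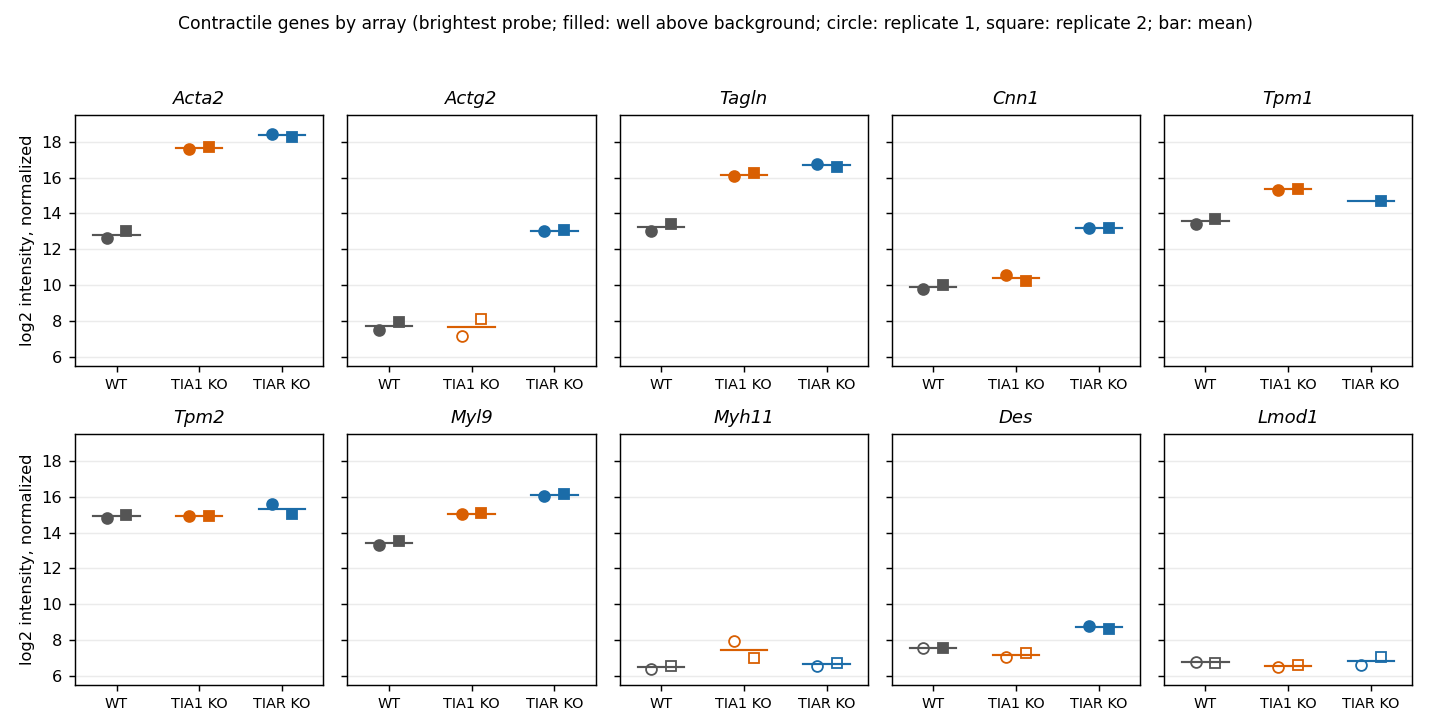
Normalized log2 intensity of the brightest probe of each contractile gene on each array, with WT, TIA1 KO and TIAR KO MEF on the x axis, replicate 1 as a circle, replicate 2 as a square, the group mean as a bar and open symbols for values not well above background. Acta2, Tagln and Myl9 stand above WT in both knockouts, Actg2 and Cnn1 stand apart on the TIAR KO arrays, and Myh11 and Lmod1 lie near background on all 6 arrays.

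Acta2 encodes alpha smooth muscle actin, the actin that defines the myofibroblast. Its probe (chr19:34316060-34316119, mm9), printed 10 times on the array, measured 12.63 and 12.99 (WT), 17.58 and 17.73 (TIA1 KO), then 18.45 and 18.26 (TIAR KO). Every knockout array was above both WT arrays, and both TIAR KO arrays were above both TIA1 KO arrays. Acta2 was thus 28.8-fold higher in TIA1 KO MEF (log2 4.85 ± 0.20, adjusted p = 0.00492) and 46.6-fold higher in TIAR KO MEF (log2 5.54 ± 0.18, adjusted p = 0.000254). Before any normalization the median spot of this probe read 8000 and 10500 (WT), 206000 and 236000 (TIA1 KO), then 348000 and 307000 (TIAR KO). The difference between the knockouts, 0.69 ± 0.17 on the log2 scale, was not called (adjusted p = 0.129). Scaling to a common median lowered the TIA1 KO value to log2 3.28, still called, and raised the difference between the knockouts to 1.77, which was then called (adjusted p = 0.00415).

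Actg2 encodes gamma smooth muscle actin, the chief actin of gut and bladder muscle. Its probe (chr6:83462904-83462963, mm9) measured 7.48 and 7.94 (WT), 7.16 and 8.11 (TIA1 KO), then 12.99 and 13.07 (TIAR KO). The TIA1 KO arrays were not well above background and lay on either side of the WT arrays, while the TIAR KO arrays stood far above all others. Actg2 was 39.9-fold higher in TIAR KO MEF than in WT MEF (log2 5.32 ± 0.20, adjusted p = 0.000324), and its log2 fold change in TIA1 KO MEF was -0.07 ± 0.39 (adjusted p = 0.908). Between the knockouts it was at least 31.1-fold higher in TIAR KO MEF, a lower limit for which each dim TIA1 KO value was raised, where it was lower, to the lowest signal rated well above background on its array (adjusted p of the fit 0.0118). The coding sequences of the actin genes are closely alike, and cross-hybridization between their probes was not tested. On the TIA1 KO arrays, where the Acta2 probe measured 17.58 and 17.73, the Actg2 probe was not well above background.

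Tagln encodes transgelin (SM22 alpha), an actin-binding protein of smooth muscle and a classic target of serum response factor. It measured 13.03 and 13.42 (WT), 16.08 and 16.23 (TIA1 KO), then 16.75 and 16.60 (TIAR KO) (chr9:45738097-45738156, mm9). The order of the 3 groups was that of Acta2, with no overlap. Tagln was 7.63-fold higher in TIA1 KO MEF (log2 2.93 ± 0.20, adjusted p = 0.0123) and 11-fold higher in TIAR KO MEF (log2 3.45 ± 0.19, adjusted p = 0.00076), and the difference of 0.52 ± 0.16 between the knockouts was not called (adjusted p = 0.18). After scaling to a common median these values were 1.34 (TIA1 KO), still called, 2.93 (TIAR KO) and 1.58 between the knockouts, which was then called (adjusted p = 0.0124).

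Cnn1 encodes calponin 1, which binds actin and restrains myosin in differentiated smooth muscle. It measured 9.78 and 9.98 (WT), 10.56 and 10.21 (TIA1 KO), then 13.16 and 13.19 (TIAR KO) (chr9:21913058-21913117, mm9). The TIA1 KO arrays lay close above WT, and the TIAR KO arrays stood clear of both groups. Cnn1 was 9.82-fold higher in TIAR KO MEF than in WT MEF (log2 3.30 ± 0.15, adjusted p = 0.000495), was not called in TIA1 KO MEF (log2 0.51 ± 0.20, adjusted p = 0.2) and was 6.92-fold higher in TIAR KO than in TIA1 KO MEF (log2 2.79 ± 0.19, adjusted p = 0.0125). Scaling the arrays to a common median turned the TIA1 KO value to -0.93, a setting in which the median of all probes was -0.68.

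Myl9 encodes the regulatory light chain of smooth muscle myosin, whose phosphorylation starts contraction. It measured 13.28 and 13.55 (WT), 15.01 and 15.09 (TIA1 KO), then 16.05 and 16.13 (TIAR KO) (chr2:156607301-156607360, mm9). The 3 groups did not overlap, with TIA1 KO MEF between the others. Myl9 was 3.11-fold higher in TIA1 KO MEF (log2 1.64 ± 0.18, adjusted p = 0.0294) and 6.38-fold higher in TIAR KO MEF (log2 2.67 ± 0.16, adjusted p = 0.00107). The difference of 1.04 ± 0.15 between the knockouts was not called (adjusted p = 0.0524), and the rise in TIA1 KO MEF was 0.03 after scaling to a common median, when the difference between the knockouts was called (log2 2.14, adjusted p = 0.00031). Its call there was lost under 7 of 15 alternatives, among them the deposited log2 table (log2 1.58, adjusted p = 0.0502).

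Myh11 encodes the smooth muscle myosin heavy chain, the marker most restricted to mature smooth muscle. Its probe ranged from 6.41 to 7.94 and was not well above background on any of the 6 arrays. Lmod1 encodes leiomodin 1, which nucleates actin filaments in smooth muscle, and its probe ranged from 6.52 to 7.04, also not well above background on any array. Neither gene was called with all arrays, and a change below the detection level of these probes cannot be seen here. Before any normalization the Myh11 spot read 991 and 188 on the TIA1 KO arrays and 95 to 105 on the others. The log2 fold change of Myh11 in TIA1 KO MEF was 0.98 ± 0.36 (limma adjusted p = 0.179), and it ran from 0.51 to 2.92 over 14 alternatives.

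Des encodes desmin, the intermediate filament protein of muscle cells. Its probe, also printed 10 times, measured 7.53 and 7.57 (WT), 7.07 and 7.27 (TIA1 KO), then 8.78 and 8.63 (TIAR KO). It was well above background on WT replicate 2 and both TIAR KO arrays, and the TIAR KO arrays were above all others. Des was 2.23-fold higher in TIAR KO MEF than in WT MEF (log2 1.15 ± 0.15, adjusted p = 0.0112) and at least 2.08-fold higher than in TIA1 KO MEF (adjusted p = 0.0329). Without WT replicate 1, or without TIAR KO replicate 1, the rise over WT MEF was no longer called. Over the 15 alternatives its log2 value ran from 1.08 to 2.51. The difference between the knockouts was not called in the deposited log2 table (adjusted p = 0.071), and was lost under 7 of 15 alternatives. The fitted log2 difference, which rests on dim TIA1 KO values, ran from 1.4 to 1.79 over these 15.

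Tropomyosins line the actin filament and set which other proteins bind it. Tpm1 makes many transcripts from alternative exons, and its 6 probes fell between chr9:66871166 and chr9:66880333 (mm9), 2 of them overlapping. In TIA1 KO MEF 5 of the 6 were called higher, with log2 fold changes of 1.08 to 1.83, and the remaining one (A_55_P2187038) had 1.49 ± 0.34 with an adjusted p of 0.1. In the deposited log2 table only A_55_P2032192 of the 6 was called (log2 1.70, adjusted p = 0.0434), and the other 4 of these 5 had log2 fold changes of 0.96 to 1.80 with adjusted p values of 0.0509 to 0.0731. In TIAR KO MEF 3 of the 6 were called higher, with log2 fold changes of 1.33 to 1.97. Of 15 alternatives, 2 lost the call of A_55_P2078675, 5 that of A_55_P2187038 and 5 that of A_55_P2187053. The lowest log2 fold changes there were 1.02, 1.47 and 1. None of the called probes in either knockout was lower than in WT MEF.

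Probe A_55_P2078680 (chr9:66880274-66880333, mm9) set the knockouts apart. It measured 11.09 and 11.53 (WT), 13.01 and 13.26 (TIA1 KO), then 10.31 and 10.98 (TIAR KO), so that the TIA1 KO arrays were above WT and the TIAR KO arrays below it. It rose in TIA1 KO MEF by 1.83 ± 0.23 on the log2 scale (adjusted p = 0.0387), had a log2 fold change of -0.67 ± 0.28 in TIAR KO MEF (adjusted p = 0.282) and differed between the knockouts by -2.49 ± 0.29 (TIAR KO minus TIA1 KO, adjusted p = 0.0352). The brightest probe, A_55_P2032192 (chr9:66871166-66871225, mm9), measured 13.42 and 13.71 (WT), 15.32 and 15.35 (TIA1 KO), then 14.68 on TIAR KO replicate 2, since its spot on TIAR KO replicate 1 was dropped as an outlier. It differed between the knockouts by -0.66 ± 0.21, which was not called (adjusted p = 0.21). The array annotation assigns these probes to partly different RefSeq transcripts, with 1 transcript in common. Their 60-base sequences, printed because their values lay on opposite sides of WT MEF in TIAR KO MEF, share at most a run of 10 bases, given in capitals:
A_55_P2032192: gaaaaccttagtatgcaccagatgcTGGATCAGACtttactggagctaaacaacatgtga
A_55_P2078680: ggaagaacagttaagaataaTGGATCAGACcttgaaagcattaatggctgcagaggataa

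The other Tpm1 probes did not all give one value. Probes A_55_P2187038 and A_55_P2187043 overlap by 46 bases, yet in TIAR KO MEF A_55_P2187038 measured 13.75 and 14.05 and A_55_P2187043 measured 10.89 and 12.53. The first of these was called in TIAR KO MEF (log2 1.97 ± 0.31, adjusted p = 0.0227) and the other was not (log2 0.79 ± 0.53, adjusted p = 0.513). TIAR KO replicate 1 held the low value of A_55_P2187043, and without it this probe was called with a log2 fold change of 1.61. Under scaling to a common median 3 of the 6 probes (A_55_P2078675, A_55_P2187038 and A_55_P2187053) turned to log2 fold changes of -0.32, -0.13 and -0.17 in TIA1 KO MEF.

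Tpm2 encodes beta tropomyosin and had 2 probes. The brighter one measured 14.81 and 14.98 (WT), 14.90 and 14.95 (TIA1 KO), then 15.60 and 15.03 (TIAR KO), and the other 13.08 and 14.01, 13.53 and 14.07, and 14.66 and 14.99 in the same order. The TIA1 KO arrays lay within or next to the WT values, and those of TIAR KO MEF were higher by log2 0.42 ± 0.23 and 1.28 ± 0.33. Neither probe was called in a comparison with WT MEF, with adjusted p values of 0.404 and 0.0944 in TIAR KO MEF and 0.906 and 0.685 in TIA1 KO MEF. Under scaling to a common median both were called lower in TIA1 KO MEF, by limma, at log2 -1.58 and -1.37 (adjusted p = 0.00589 and 0.0192). In TIAR KO MEF the second probe was called higher without WT replicate 2 (log2 1.74, adjusted p = 0.0249) and with the replicate number as a block (adjusted p = 0.0347).

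**Figure D2:**
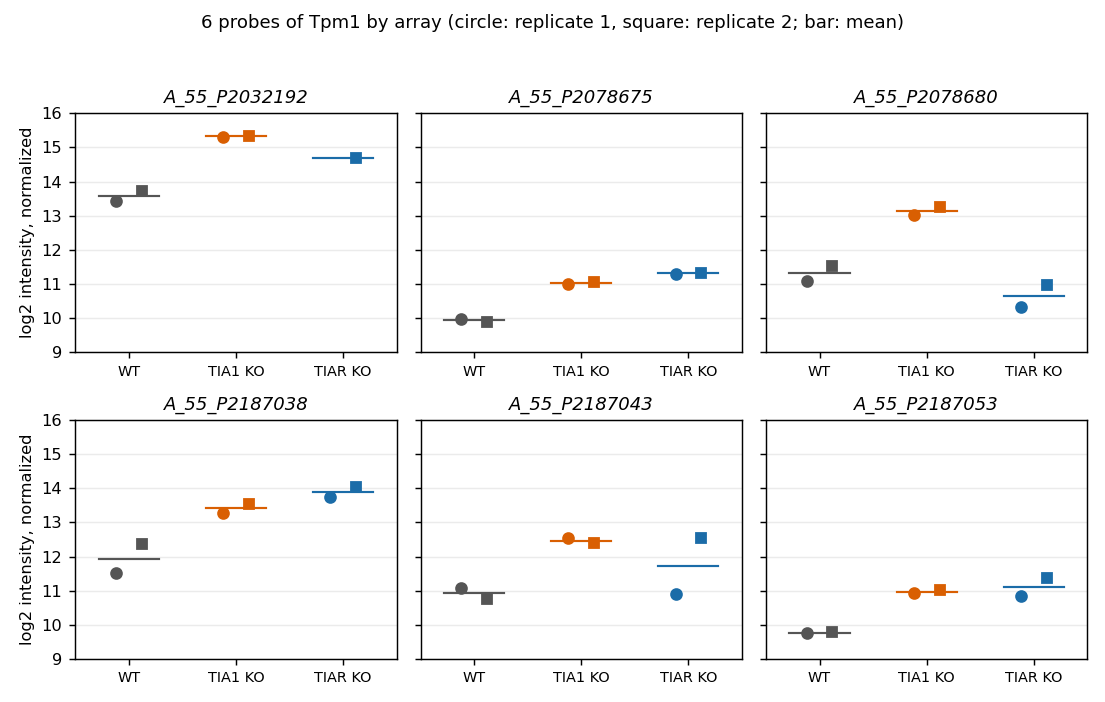
Normalized log2 intensity of the 6 Tpm1 probes on each array, by group on the x axis, with replicate 1 as a circle, replicate 2 as a square and the group mean as a bar. All 6 probes lie higher on the TIA1 KO arrays than on the WT arrays, while A_55_P2078680 lies lower on the TIAR KO arrays, at 10.31 and 10.98, and A_55_P2187043 is split between them.

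Compared directly, TIAR KO and TIA1 KO MEF differed at 4 of the 16 probes, where 3.35% of all probes were called. Actg2, Cnn1 and Des were higher in TIAR KO MEF, and the Tpm1 probe A_55_P2078680 was lower. The median log2 difference of the 16 probes (TIAR KO minus TIA1 KO) was 0.43, beside 0.05 over all probes. These calls were lost without TIAR KO replicate 1 or without TIAR KO replicate 2. Every call of the whole array was lost with them, so the loss says nothing particular to these 16 probes. Their median log2 difference was then 0.46 and 0.6. After scaling to a common median 11 of the 16 were called, 10 of them higher in TIAR KO MEF, where 15.1% of all probes were called and their median difference was 0.63. Without TIA1 KO replicate 2 the count was 7, where 18.1% of all probes were called.

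**Figure D3:**
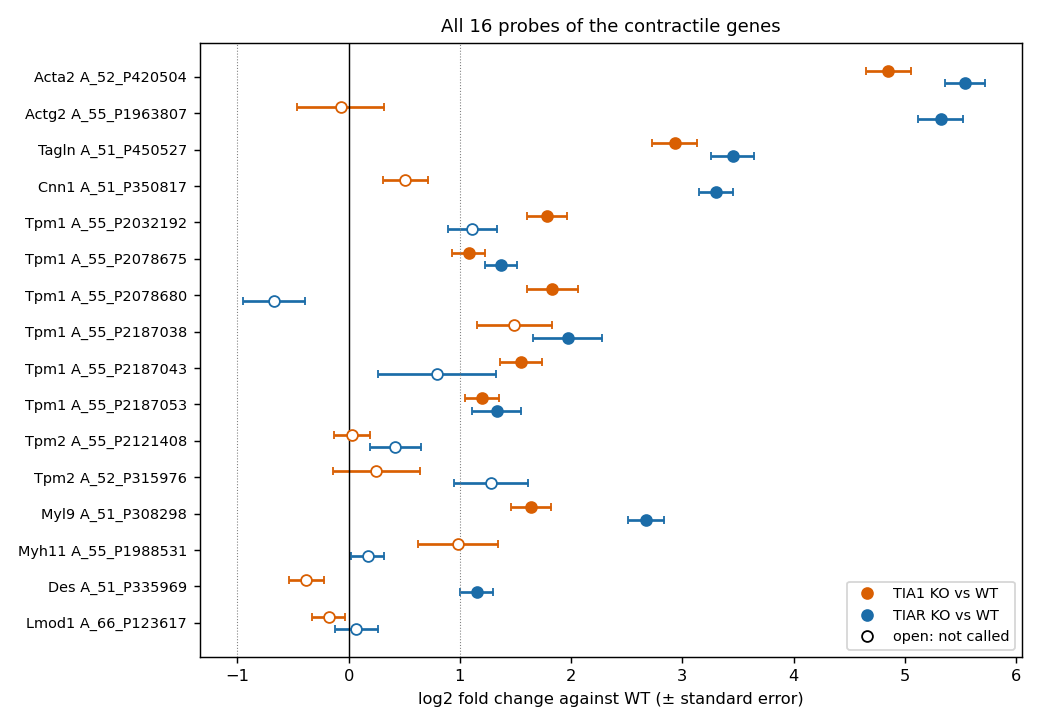
Log2 fold change against WT MEF of all 16 probes, with the standard error as a bar, TIA1 KO in orange, TIAR KO in blue, open symbols where the probe was not called and dotted lines at a fold change of 2 in either direction. Acta2 lies at 4.85 and 5.54, Actg2 in TIAR KO MEF at 5.32, Tagln at 2.93 and 3.45 and Cnn1 in TIAR KO MEF at 3.30, and A_55_P2078680 of Tpm1 stands on opposite sides of 0 (1.83 and -0.67).

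Acta2 and Tagln had nearly the same profile over the 6 arrays. Of the 18311 genes with a brightest probe detected above background on the 2 arrays of some group, the 5 most like Acta2 by Pearson's r over 6 arrays were 1810058I24Rik (0.9996), 9030425E11Rik (0.9993), Diras2 (0.9992), Mmp14 (0.9992) and Tagln (0.9991). Mmp14 encodes a membrane-bound matrix metalloproteinase and Diras2 a small GTPase of the Ras family. An r of at least 0.95 was reached by 445 genes, over points that fall into 3 groups of 2 arrays. Among the other contractile genes r with Acta2 was 0.96 for Myl9, 0.70 for Cnn1, 0.59 for Actg2 and 0.39 for Des, and over the Tpm1 probes it ran from 0.14 (A_55_P2078680) to 0.99 (A_55_P2078675).

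The 250 bases before the start site were available from RefSeq (GRCm38.p6) for 7 of the 10 genes, all but Actg2, Tagln and Myh11. They were searched for the CArG box, which reads the same way on both strands, first exactly and then with up to 1 mismatch. Of these 7 promoters 1 held an exact match, that of Myl9, beside 1.47% of 32851 RefSeq promoters, and 4 held a match with up to 1 mismatch (Acta2, Myl9, Tpm1 and Lmod1), beside 18.6% of all. The promoters of Acta2 (chr19:34255374-34255623, minus strand), Myl9 (chr2:156775214-156775463, plus strand) and Lmod1 (chr1:135324563-135324812, plus strand) are shown because Acta2 and Myl9 rose in both knockouts while Lmod1 stayed near background, with all 3 holding such letters. Matches are in capitals, 5' to 3':
Acta2: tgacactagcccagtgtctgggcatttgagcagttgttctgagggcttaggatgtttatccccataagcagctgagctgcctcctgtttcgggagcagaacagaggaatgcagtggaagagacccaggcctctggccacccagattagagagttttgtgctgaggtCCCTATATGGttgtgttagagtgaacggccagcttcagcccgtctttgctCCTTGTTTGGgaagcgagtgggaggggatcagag
Myl9: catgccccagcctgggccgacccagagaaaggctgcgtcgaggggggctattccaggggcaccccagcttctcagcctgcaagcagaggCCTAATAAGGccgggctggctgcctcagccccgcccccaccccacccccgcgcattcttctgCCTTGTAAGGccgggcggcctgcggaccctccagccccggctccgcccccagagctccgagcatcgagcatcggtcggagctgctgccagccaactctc
Lmod1: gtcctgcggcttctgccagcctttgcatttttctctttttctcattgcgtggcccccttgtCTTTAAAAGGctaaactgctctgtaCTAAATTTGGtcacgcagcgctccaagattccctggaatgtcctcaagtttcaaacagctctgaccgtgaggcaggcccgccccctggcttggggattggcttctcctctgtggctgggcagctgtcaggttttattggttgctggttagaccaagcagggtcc

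In these windows the Acta2 matches began 84 and 34 bases before the start site, those of Myl9 161 (exact) and 99 bases before it, and those of Lmod1 189 and 164 bases before it. Cnn1 and Des, which rose in TIAR KO MEF, and Tpm2 had no such letters in their windows. A match describes letters, and binding was not measured here.

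Genes that regulate the contractile programme were read next. As for the contractile genes, no call of any list in TIA1 KO MEF remained when 1 WT array was left out. Of 37 listed genes 8 rose in TIA1 KO MEF, with no fall called, while 9 rose and 1 fell in TIAR KO MEF. Over all genes, by brightest probe, 2.88% were called higher and 1.63% lower without TIA1, and 4.36% higher and 2.82% lower without TIAR. After scaling to a common median the counts were 4 up and 13 down (TIA1 KO), then 7 up and 3 down (TIAR KO), beside the 28.8% and 7.51% of all probes called in that setting and its median of -0.68 without TIA1. Tgfb2, a transforming growth factor beta ligand, rose in both knockouts. It stood at log2 4.17 ± 0.17 without TIA1 (adjusted p = 0.00495) and 4.36 ± 0.15 without TIAR (adjusted p = 0.000288). Gata6, a transcription factor of vascular smooth muscle, stood at 3.07 ± 0.19 (adjusted p = 0.00891) and 5.28 ± 0.14 (adjusted p = 0.000186). The ligand gene Tgfb3 measured 11.42 and 11.18 (WT), 15.30 and 15.18 (TIA1 KO), then 13.94 and 13.78 (TIAR KO), and was called in both knockouts (log2 3.94 ± 0.17 and 2.56 ± 0.16) and lower in TIAR KO than in TIA1 KO MEF. Tgfb1 was not called in either, with log2 fold changes of 0.47 ± 0.15 and -0.37 ± 0.14.

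The integrin subunit gene Itgb5 rose by 2.98 without TIA1 and 1.84 without TIAR on the log2 scale, and Foxs1, a forkhead factor, by 2.26 and 3.28. The receptor gene Tgfbr2 rose by 1.76 ± 0.15 without TIA1 (adjusted p = 0.0177) and had a value of -0.23 ± 0.14 in TIAR KO MEF, and the 2 knockouts differed (adjusted p = 0.0154). Of the 2 Tgfbr2 probes 1 was called higher without TIA1. In TIAR KO MEF the integrin subunit gene Itga1 rose by 2.15, the homeobox gene Prrx1 rose by 1.96 and the Kruppel-like factor gene Klf5 fell by 1.13. Its relative Klf4 rose by 1.54 in TIA1 KO MEF (adjusted p = 0.0256) and had 0.76 ± 0.20 in TIAR KO MEF, which was not called (adjusted p = 0.102). In TIA1 KO MEF the same Prrx1 probe had a larger value, 2.40 ± 0.43, that was not called (adjusted p = 0.0739), while the other of its 2 probes was called higher there. Serum response factor itself (Srf) measured 13.17 and 13.28 (WT), 13.20 and 13.27 (TIA1 KO), then 13.40 and 13.49 (TIAR KO), and was not called (log2 0.01 ± 0.15 and 0.22 ± 0.14). The co-activator genes Mkl1 (0.57 ± 0.29 and 0.97 ± 0.27) and Mkl2 (-0.44 ± 0.17 and 0.08 ± 0.16) were not called either, and Myocd, the muscle-restricted co-activator, was not well above background on any array.

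Of 43 other actomyosin and actin-binding genes 4 rose and 2 fell in TIA1 KO MEF, and 9 rose in TIAR KO MEF with no fall called. With a common median these counts were 1 up and 16 down (TIA1 KO), then 5 up and 0 down (TIAR KO), beside the same shares of all probes. Cald1, which encodes caldesmon, rose by 1.26 on the log2 scale in each knockout, Synpo (synaptopodin) by 2.40 (TIA1 KO) and 1.68 (TIAR KO) and Tes (testin) by 1.99 and 1.60. Csrp2, a LIM protein of vascular smooth muscle, measured 12.90 and 12.99 (WT), 15.56 and 15.66 (TIA1 KO), then 12.80 and 12.92 (TIAR KO), and differed between the knockouts (adjusted p = 0.00942). Its TIA1 KO arrays were above all others.

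In TIAR KO MEF the actin-filament protein gene Nexn rose by 3.06 ± 0.15 (adjusted p = 0.000587), Ppp1r14a, whose product inhibits myosin phosphatase, by 2.52 ± 0.15 (adjusted p = 0.000973), Palld (palladin) by 1.79 ± 0.33 (adjusted p = 0.0364) and the LIM protein gene Csrp1 by 1.42 ± 0.27 (adjusted p = 0.0404), all on the log2 scale. In TIA1 KO MEF Fhl2 fell by 1.35 on the log2 scale, and Ppp1r12b, a myosin phosphatase subunit gene that was not well above background there, was at least 1.93-fold lower (adjusted p = 0.0358). Of the 4 Ppp1r12b probes 1 was called lower there. The cytoplasmic actin genes Actb (-0.04 ± 0.16 and 0.08 ± 0.14) and Actg1 (0.33 ± 0.19 and 0.13 ± 0.26) were not called.

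Myofibroblasts secrete the matrix that they pull on. Of 22 matrix genes 13 rose in TIA1 KO MEF with no fall called, and 15 rose and 1 fell in TIAR KO MEF, with median log2 fold changes of 2.03 and 1.65. With a common median 8 rose in TIA1 KO MEF, and 12 rose and 2 fell in TIAR KO MEF, again beside 28.8% and 7.51% of all probes. Col4a1, a basement membrane collagen gene, measured 7.35 and 7.06 (WT), 14.66 and 14.78 (TIA1 KO), then 14.20 and 14.14 (TIAR KO), a log2 rise of 7.51 ± 0.18 (adjusted p = 0.00362) and 6.97 ± 0.16 (adjusted p = 0.000176). Col3a1 (collagen III) rose by 6.32 and 6.60, and Col6a3 (collagen VI), which was not well above background in WT MEF, was at least 295-fold higher without TIA1 and at least 5.63-fold higher without TIAR.

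Lox, whose product cross-links collagen, rose by 4.34 without TIA1 and 2.21 without TIAR on the log2 scale, Thbs1 (thrombospondin 1) by 3.37 and 1.73 and Ctgf (connective tissue growth factor) by 3.22 and 1.56, and all 3 were lower in TIAR KO than in TIA1 KO MEF (adjusted p = 0.017, 0.0245 and 0.0302). Loxl2 rose by 1.86 and 3.47. Postn (periostin) was at least 9.31-fold higher in TIAR KO MEF, where its arrays measured 9.11 and 11.11.

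**Figure D4:**
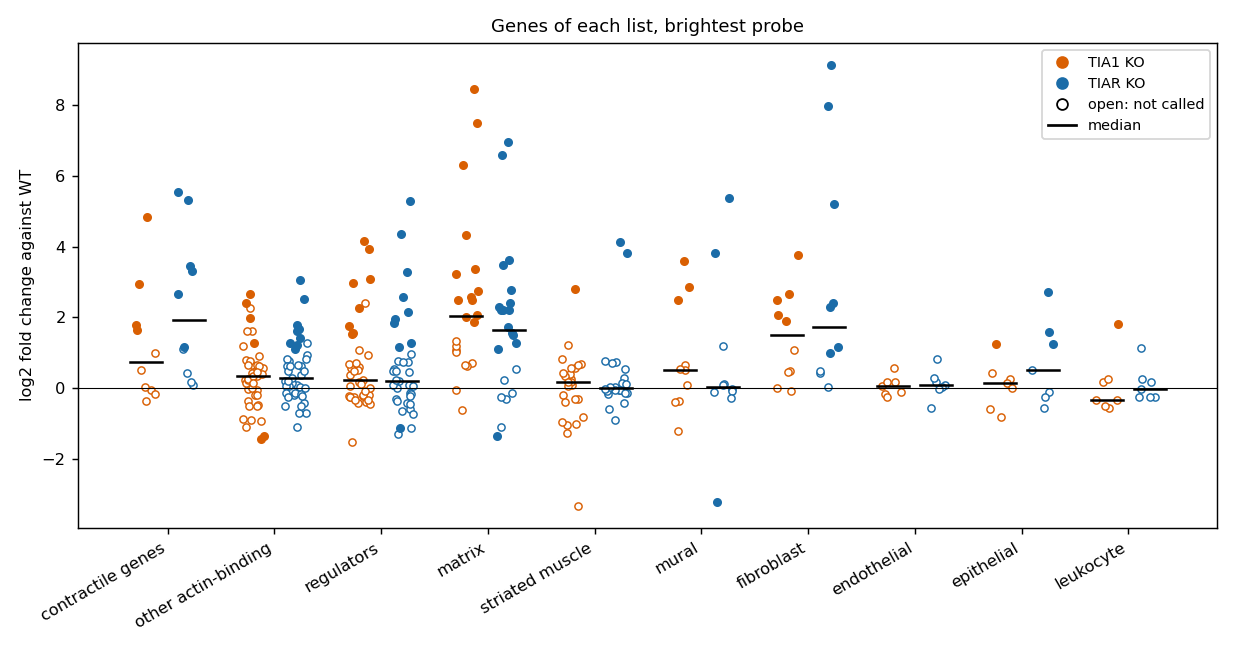
Log2 fold change against WT MEF of every gene of each list, read from its brightest probe, with TIA1 KO in orange, TIAR KO in blue, open symbols where the gene was not called and a black bar at the median of the list. The matrix list has medians of 2.03 and 1.65 and the contractile genes 0.74 and 1.91, while the endothelial list has 0.05 and 0.09 with no call.

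Markers of other cells were read in the same arrays. Of 10 fibroblast markers 5 rose without TIA1 and 7 without TIAR, and 2 of the 10 (Col1a1 and Col1a2) are also on the matrix list. Of all genes, by brightest probe, 2.88% and 4.36% were called higher. With a common median the fibroblast counts were 2 up and 1 down (TIA1 KO), then 5 up and 0 down (TIAR KO). In that setting 28.8% and 7.51% of all probes were called. The deposited log2 table gave 3 up without TIA1 and 7 without TIAR. The processed signals gave 0 without TIA1, as for all probes, and 5 up without TIAR. The summed intensity of the fibroblast list was 531000 and 569000 (WT), 1090000 and 1050000 (TIA1 KO), then 1250000 and 1210000 (TIAR KO). Its probe with the brightest mean was that of S100a4. The brightness of different probes does not rank their transcripts, here or in the lists that follow. Thy1, a surface protein of fibroblasts, measured 6.63 and 6.98 (WT), 7.11 and 7.48 (TIA1 KO), then 14.84 and 14.74 (TIAR KO), and Dcn (decorin) measured 6.57 and 6.62, 9.24 and 9.29, and 15.67 and 15.82 in the same order. Pdgfra, the receptor that marks mesenchymal cells, was not well above background in WT MEF and was at least 9.52-fold higher without TIA1 and at least 26.1-fold higher without TIAR. On the WT arrays Thy1 and Dcn were well above background on replicate 2 alone, and Lum was so on none of the 6 arrays. Col1a1, a collagen I gene, measured 15.29 and 15.09 (WT), 17.27 and 17.25 (TIA1 KO), then 17.52 and 17.67 (TIAR KO). On the log2 scale Col1a2 rose by 2.50 and 2.28 and Fbln1 by 1.90 and 1.15.

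Of 10 mural cell markers (pericytes and vascular smooth muscle) 3 rose in TIA1 KO MEF, and 2 rose and 1 fell in TIAR KO MEF. Over all genes 2.88% were called higher without TIA1, and 4.36% higher and 2.82% lower without TIAR. Without TIA1 the mural counts were 3 up and 1 down with a common median and 2 up in the deposited log2 table. They were 0 with the processed signals, as for all probes. The TIAR KO counts stayed at 2 up and 1 down in these settings. Notch3 was at least 7.28-fold and at least 41.3-fold higher, and Pdgfrb rose by 3.60 and 3.81 on the log2 scale. Cspg4 (NG2) went opposite ways, at 10.31 and 10.60 (WT), 12.93 and 12.99 (TIA1 KO), then 7.19 and 7.25 (TIAR KO). The pericyte markers Rgs5, Kcnj8 and Abcc9 were not well above background on any array. The summed intensity of the list was 29600 and 35900 (WT), 29500 and 31000 (TIA1 KO), then 46000 and 47900 (TIAR KO), and its brightest probe was that of Mcam.

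Of 25 striated muscle markers 12 were not well above background on any array, among them Myod1, Myog, Ckm and Actc1. Without TIA1 1 of the 25 was called higher, without TIAR 2, and 0 were called lower in either knockout. The median log2 fold changes of the list were 0.17 (TIA1 KO) and -0.01 (TIAR KO). The shares of all genes called higher, by brightest probe, were 2.88% and 4.36%. Acta1, skeletal muscle actin, rose by 2.80 ± 0.16 without TIA1 (adjusted p = 0.00824) and 3.83 ± 0.20 without TIAR (adjusted p = 0.000739) on the log2 scale, and Myl7, an atrial myosin light chain, was at least 14.0-fold higher in TIAR KO MEF. The list summed to between 4450 and 10300 on any array, and its brightest probe by the mean over the 6 arrays was that of Acta1.

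Of 7 endothelial markers limma called 0 in either knockout, with 1 (TIA1 KO) and 2 (TIAR KO) at an unadjusted p under 0.05. Of 7 leukocyte markers Itgam rose in TIA1 KO MEF by 1.82 ± 0.24 on the log2 scale (adjusted p = 0.0415). Of 7 epithelial markers Krt8 rose in both knockouts (1.23 in each) and Krt18 and Cdh1 in TIAR KO MEF (2.72 and 1.58), on the log2 scale. Over all genes, by brightest probe, 2.88% (TIA1 KO) and 4.36% (TIAR KO) were called higher. In TIA1 KO MEF, 0 leukocyte and 0 epithelial markers were called higher in the deposited log2 table, and likewise with a common median. In TIAR KO MEF 3 epithelial markers were called higher in each of these settings. These lists summed to between 3280 and 4150 (endothelial, brightest probe that of Kdr), between 5480 and 15500 (leukocyte, Itgam) and between 1190 and 2710 (epithelial, Krt8) on any array. Ptprc, Cdh5 and Tie1 were not well above background on any array. The part of these other cell type markers in the contractile gene values was not tested.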

How the data were processed

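Per the labels, RNA of 6 samples was hybridized in 1 colour (Cy3), 2 arrays per group. That the 2 samples of a group were separate cultures rests on the study's description of them as different biological samples. The authors deposited scanner intensity values per spot (mean, local background and processed intensity, linear, not normalized between arrays) and a table of log2 values per probe, normalized with limma per the submitters' processing notes. Probe positions are on mm9.

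The mean and background intensities were corrected by normexp (offset 50), taken to log2, fitted by loess in 1 pass to the array mean, then quantile normalized. Control and outlier spots were left out and spots of a probe averaged. The deposited log2 values correlated with these at 0.997 to 0.999 and served as an alternative. A probe was well above background on an array where the scanner software rated 50% or more of its spots so. Lower limits of a fold raised dim values, where lower, to the lowest signal rated well above background on that array.

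Each comparison was fitted with limma (lmFit, eBayes) on its own 4 arrays, and probes were called by the thresholds of the study's methods, an adjusted p (Benjamini-Hochberg) under 0.05 with a fold above 2. A gene was read from its brightest probe. The fits were tested on simulated data, with no outcome reported here. The 10 genes and all lists were chosen with earlier results of these data known. Named were all contractile genes, Tia1, Tial1, Gapdh, Actb, Actg1, preset regulators, up to 6 genes of every other list with the largest called change in each knockout, genes called in opposite directions and the 5 genes most like Acta2 by r. Klf4, Klf5, the gene with the brightest probe of each marker list and the markers named as not above background were added after their values were seen. Promoters were taken from RefSeq (GRCm38.p6). The value of 1 listed matrix gene is not reported here. Precision is limited by the small number of arrays. Alternatives are given in the closing section. Computations used R 4.3.3, limma 3.58.1, data.table version 1.17.8, Python 3.11.15, pandas 2.3.3, numpy 2.4.6 and matplotlib 3.10.9.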

Additional observations from a re-analysis of the deposited data

Results flagged for a closer look

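At 4 probes the change from WT MEF differed between the knockouts by a test of the difference itself (limma, TIAR KO minus TIA1 KO MEF). The fitted difference of Actg2 was 5.39 on the log2 scale (adjusted p of the fit 0.0118). It rests on TIA1 KO values that were not well above background, and the lower limit was 31.1-fold. Cnn1 differed by 2.79 (adjusted p = 0.0125). The fitted difference of Des was 1.54 (adjusted p of the fit 0.0329). This value also rests on dim TIA1 KO values, and the lower limit was 2.08-fold. The call of Des was lost under 7 of 15 alternatives, among them the deposited log2 table (adjusted p = 0.071). The Tpm1 probe A_55_P2078680 differed by -2.49 (adjusted p = 0.0352), a call lost under 5 of 15 alternatives, and those of Actg2 and Cnn1 were lost under 3. These 3 were the replicate block and leaving out either TIAR KO array, in which the whole array lost its calls too. Over the 15 alternatives the log2 difference ran from -2.83 to -1.39 for the Tpm1 probe and from 2.61 to 3.86 for Cnn1. For Actg2, dim on the TIA1 KO arrays, the fitted value ran from 4.92 to 6.23.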

How the results depend on the processing

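The called probes of Acta2, Actg2, Tagln, Cnn1 and Myl9 in TIAR KO MEF kept their direction and call under all 15 alternatives. With the processed signals scaled to their 75th percentile, 0 of the 16 probes were called in TIA1 KO MEF (as were 0 of all probes, although 27765 had an unadjusted p under 0.05) and 2 between the knockouts (2.71% of all). With arrays scaled to a common median the counts were 4 in TIA1 KO MEF (2 higher and 2 lower) and 11 between the knockouts, with 28.8% and 15.1% of all probes called. Testing a fold above 2 itself (treat) gave 2 in TIA1 KO MEF, 5 in TIAR KO MEF and 2 between the knockouts (0.79%, 1.82% and 0.735% of all), and the deposited log2 table gave 3 in TIA1 KO MEF (2.32% of all). Leaving out 1 array at a time gave 0 to 9 calls in TIA1 KO MEF, 7 to 9 in TIAR KO MEF and 0 to 7 between the knockouts. Without TIA1 KO replicate 2 the share of all probes called was 19.3% in TIA1 KO MEF, beside 3.54% with all arrays, and 18.1% between the knockouts, beside 3.35%. The single array left in a group was taken to vary as much as its counterpart group, and the normalization was kept. The cause of these changes was not tested.

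Replicate numbers did not pair the arrays (correlations of replicate differences of 0.078, 0.0302 and -0.0729). With the replicate number as a block, 2 probes were called in TIA1 KO MEF (1.21% of all), 10 in TIAR KO MEF (5.94%) and 0 between the knockouts, as were 0 of all probes there, although 10684 had an unadjusted p under 0.05.

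Single probes turned sign as follows, on the log2 scale. With the processed signals, where the median of all probes was 1.98 in TIA1 KO MEF and -1.85 between the knockouts, in TIA1 KO MEF Actg2 was 0.37, the Tpm2 probes -0.16 and -0.04, Des 0.86 and Lmod1 2.64, and Lmod1 was -2.04 between the knockouts. With a common median, in TIA1 KO MEF, Cnn1 was -0.93, the Tpm1 probes A_55_P2078675, A_55_P2187038 and A_55_P2187053 were -0.32, -0.13 and -0.17 and the Tpm2 probes -1.58 and -1.37. The brighter Tpm2 probe was then -0.07 in TIAR KO MEF, and the Tpm1 probes A_55_P2032192 and A_55_P2187043 were 0.39 and 0.34 between the knockouts. Leaving out 1 array at a time, Actg2 ran from -0.55 to 0.40 in TIA1 KO MEF and the Tpm2 probes from -0.05 to 0.11 and from -0.21 to 0.72. In TIAR KO MEF, Tpm1 A_55_P2187043 ran from -0.03 to 1.61 and Lmod1 from -0.14 to 0.28. Between the knockouts, A_55_P2187043 ran from -1.58 to 0.06 and A_55_P2187053 from -0.13 to 0.41. The number of probes above background, lowest on TIA1 KO replicate 1, limits what can be read for Actg2, Des, Myh11 and Lmod1.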
